A study of Mus musculus with 8 samples.

Results

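The 31 genes described here encode the machinery of DNA replication and the G1/S transition, from the MCM helicase subunits to the E-type cyclins. They were chosen by name and not by a threshold on their values, but with earlier results of these data known. Shares of all genes beside their counts are therefore a description and not a test. The 49315 gene identifiers of the deposited table held all 31. All 31 stood at a level of 1 TPM (transcripts scaled to gene length and to the total of the library) or more in all 8 libraries and all 31 passed the filter on low values, so that none was left out of the tests of KO against WT and between lines. The table holds poly(A)-selected RNA-seq libraries of cell lines from pancreatic ductal adenocarcinoma of the mouse. There are 4 such lines, named 6694c2, 2838c3, 6499c4 and 6419c5, and for every line 1 wild-type (WT) library and 1 C1galt1c1-knockout (KO) library. C1galt1c1 encodes Cosmc, the chaperone that the core 1 O-glycan galactosyltransferase needs, and cells without it display the truncated Tn antigen. All cultures were grown in serum-supplemented high-glucose DMEM and, according to the submitters, were harvested at matched confluence. The labels give neither the origin of the lines nor how the knockout was made, and they do not say whether a KO line is a clone or a pool. The 4 libraries of a genotype are therefore 4 different lines and not repeated cultures of a line, and nothing repeats the KO and WT values of any line.

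In G1, the origin recognition complex, Cdc6 and Cdt1 load the MCM helicase onto origins, and in S phase Cdc45 and the GINS complex turn it into the active replicative helicase. Most of these genes are targets of the E2F transcription factors, which the retinoblastoma protein holds back until cyclin D and cyclin E kinases phosphorylate it. Their transcripts are abundant in proliferating cells from late G1 through S phase and scarce in arrested cells. In a bulk library, fewer cells in S phase and less of a transcript per cell cannot be told apart.

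C1galt1c1 was measured at 37.0 TPM in WT and 10.9 TPM in KO of 6694c2, at 40.4 and 15.3 TPM in 2838c3, at 54.2 and 19.0 TPM in 6499c4, and at 37.9 and 16.1 TPM in 6419c5. Every KO library lay below every WT library for the targeted gene, whose adjusted limma p for KO against WT was 0.278. Of 8 ductal epithelial markers 7 were at 1 TPM or more in every library, whereas 7 of 8 leukocyte markers, 4 of 5 endothelial markers and 5 of 8 fibroblast markers were under 1 TPM in all of them. The summed level of the leukocyte markers was 5.89 to 14.4 TPM in WT and 8.07 to 28.6 TPM in KO. The fibroblast markers summed to 2.45 to 7.46 TPM in WT and 2.33 to 7.42 TPM in KO. Of 8 acinar and islet markers 7 were at 0 in every library. The remaining marker was at 1 TPM or more in every library, at 4.86 to 44.4 TPM in WT and 4.59 to 23.7 TPM in KO. Identifiers without a gene name took 12.5% of the TPM in the KO library of 6694c2 and 9.69% in that of 6419c5, against 0.713% to 1.33% in the other 6 libraries. Annotated rRNA and small RNA classes took 1.28% and 1.25% in these KO libraries and 0.395% to 0.535% elsewhere. TPM sum to the same total in every library, so the level of every other gene is scaled down in those 2 KO libraries. With unnamed identifiers and small RNA left out and TPM rescaled, the median difference of the 31 genes over lines was -0.60, as with them. This difference was taken less the median of all genes, so a scaling of whole libraries largely cancels in it. That median of all genes went from -0.15 to -0.07. The TPM levels given below were not rescaled.

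The 31 genes were highest in the WT library of 2838c3 and were spread over a narrower range in the KO libraries. Their summed level was 1700 TPM in WT and 974.6 TPM in KO of 6694c2, 2417 and 672.2 TPM in 2838c3, 1218 and 969.7 TPM in 6499c4, and 735.8 and 766.9 TPM in 6419c5. Line 2838c3 thus held both the highest and the lowest sum, while the sums of 6419c5 differed little. Of the 31 genes, 30 had their highest level of the 8 libraries in 2838c3 WT, against 19.6% of all genes tested. The exception was Rrm2, which was highest in 6694c2 WT. The lowest level lay in 2838c3 KO for 18 genes (14.4% of all genes), and 17 genes had both their highest and their lowest level in this line (3.3% of all genes). Among the WT libraries 6419c5 was the lowest for 27 genes (22.7% of all genes), and 21 genes followed the order 2838c3, 6694c2, 6499c4, 6419c5 from high to low (7.57% of all genes). The highest WT level was a median of 3.39 times the lowest WT level, and the highest KO level a median of 2.02 times the lowest. The WT range was the wider of the 2 for 28 genes, against 43.9% of all genes.

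**Figure D1:**
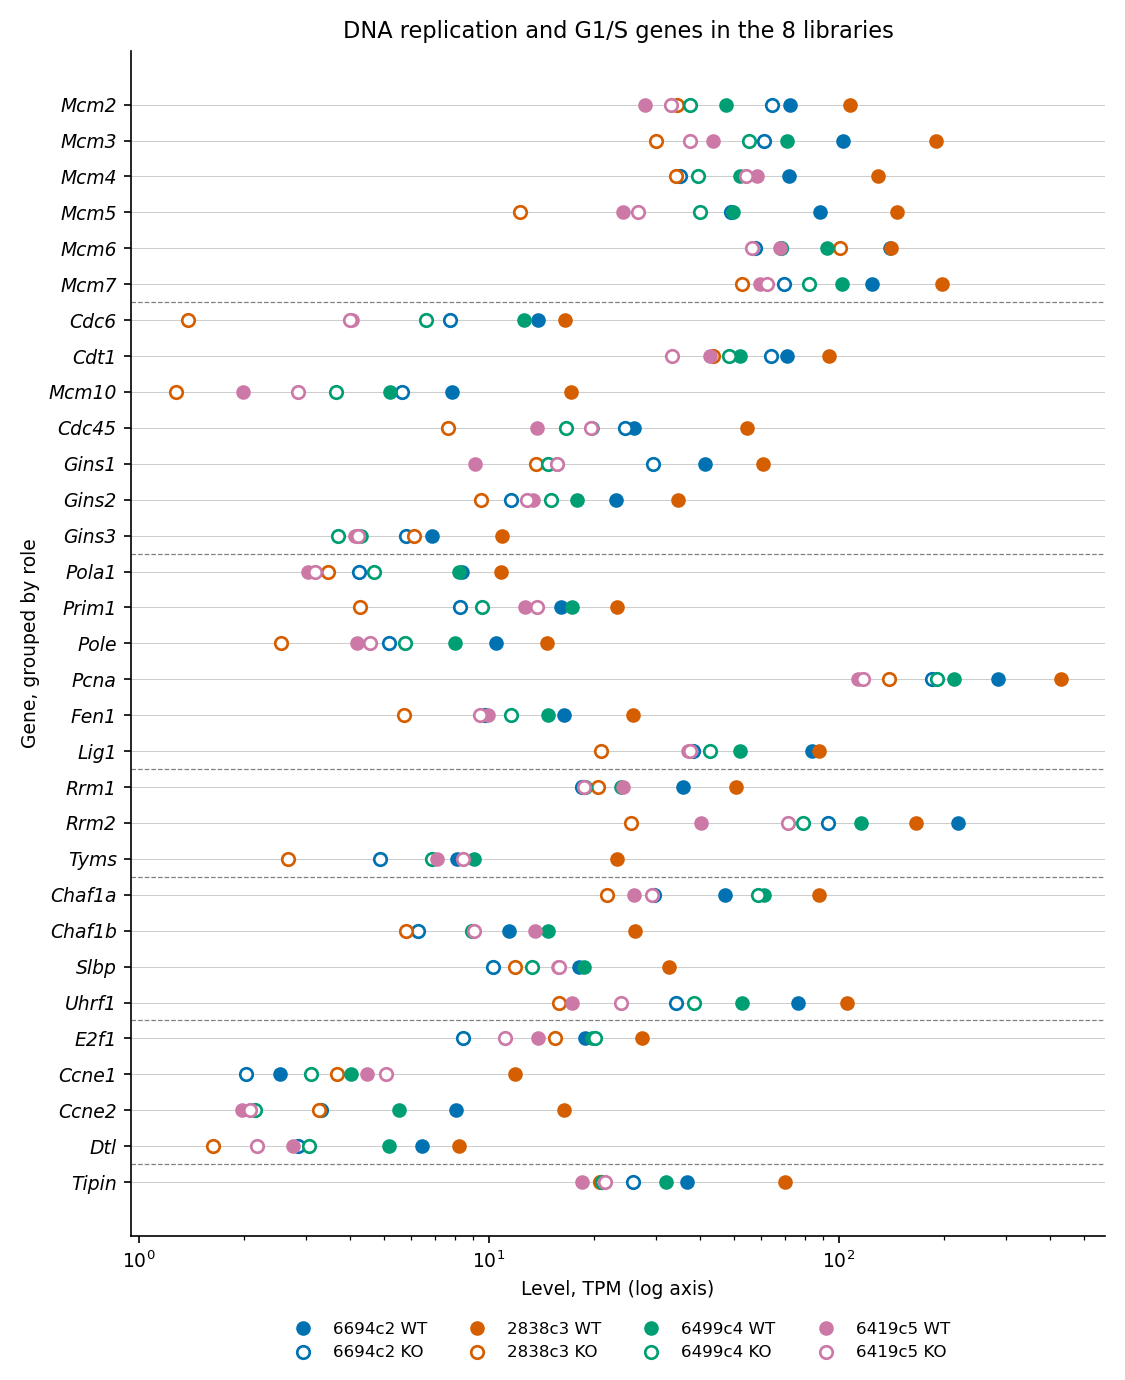
TPM on a log axis of each of the 31 genes in the 8 libraries, grouped by role, with colour for the line and filled or open symbols for WT or KO. The WT symbol of 2838c3 is the highest of the 8 for 30 genes, and its KO symbol is the lowest for 18.

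For the difference between KO and WT, log2(TPM + 1) values are used and the median over the 12900 genes tested is subtracted. That median was -0.15 across lines. By line it was -0.23 (6694c2), -0.08 (2838c3), -0.11 (6499c4) and -0.16 (6419c5). These relative log2 differences understate the change of genes with low TPM. Across the 31 genes the median relative difference was -0.54 in 6694c2, -1.88 in 2838c3, -0.25 in 6499c4 and 0.21 in 6419c5. By these relative differences, at least 2-fold lower values in KO were found for 2 genes in 6694c2 (3.17% of all genes tested), for 28 genes in 2838c3 (6.47%), for 0 genes in 6499c4 (1.26%) and for 0 genes in 6419c5 (1.44%). None of the 31 was at least 2-fold higher in KO in 6694c2 (2.79% of all genes), 2838c3 (5.89%), 6499c4 (1.12%) or 6419c5 (2.09%). In 2838c3 11 genes were at least 4-fold lower in KO, against 1.37% of all genes. The 3 genes less than 2-fold lower there were Mcm6 at -0.40, Gins3 at -0.67 and E2f1 at -0.71, and the gene nearest to 2-fold among the 28 was Cdt1, whose KO level was 46.6% of WT. The lowest of a gene's 4 differences was that of 2838c3 for 29 genes, and the highest was that of 6419c5 for 29 genes. Whether 2838c3 differs from the other lines was not tested, since it has 1 library of each genotype.

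**Figure D2:**
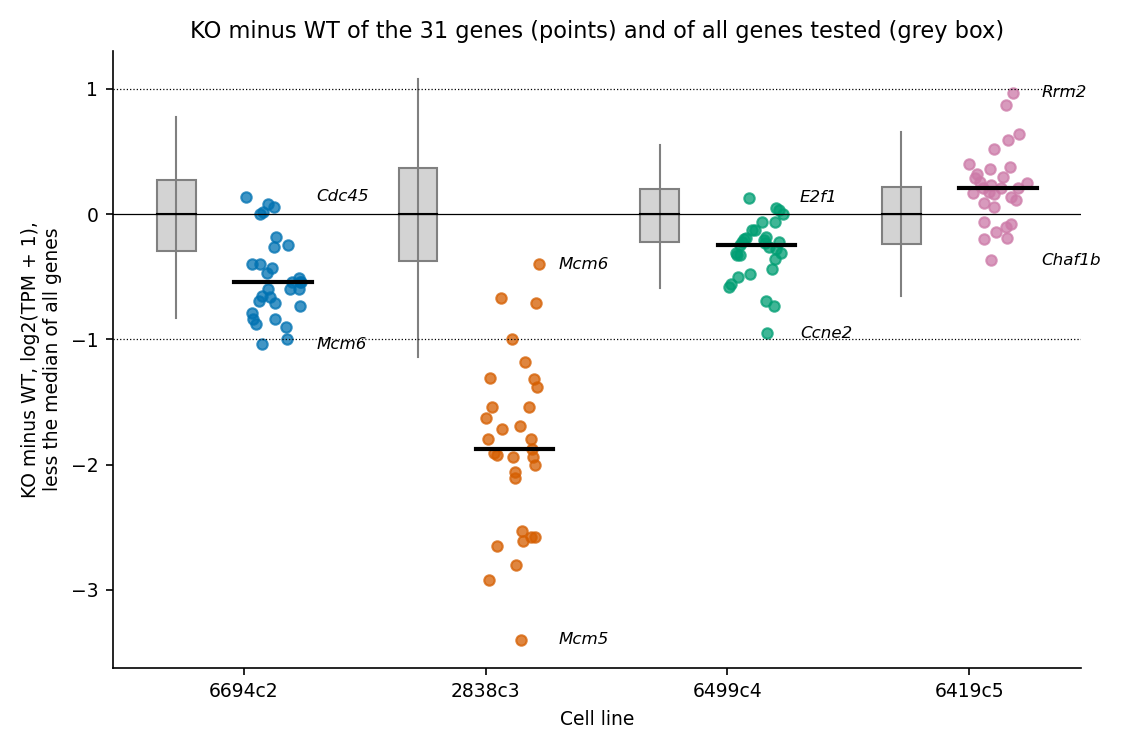
Relative log2 difference KO minus WT of each of the 31 genes in each line, on the log2(TPM + 1) scale less the median of all genes in that line, with a bar at the median of the 31 and a grey box for the middle range of all genes tested. The medians are -0.54 in 6694c2, -1.88 in 2838c3, -0.25 in 6499c4 and 0.21 in 6419c5.

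Over the 4 lines, with the line as a term of the model, 0 of the 31 genes passed an adjusted p of 0.05 in limma's test of KO against WT, and 0 of the 12900 genes did (0.0%). The adjusted p-values of the 31 genes lay between 0.556 and 0.685. At an unadjusted p under 0.05, limma counted 16 of the 31, all lower in KO, against 7.95% of all genes on the lower side and 8.81% in either direction. Of the 1137 genes at that level 90.2% were on the lower side, but with the libraries rescaled by the median ratio of their genes the split was 54.3% of 639 genes, and 5 of the 31 were then counted (2.69% of all genes on the lower side). Without 2838c3 the count was 8 of the 31, against 11.4% of all genes. All 31 estimates lay below the median of all genes, with a median of -0.60 and a range from -0.98 for Cdc6 to -0.13 for Gins3. Without the libraries of 2838c3 the median was -0.20, and 25 of the 31 estimates were below the median of all genes. The other 6, Mcm2, Mcm10, Cdc45, Gins1, Gins3 and Ccne1, were then between 0.02 and 0.23 above it. Relative differences below 0 in all 4 lines were found for 5 genes, Mcm3, Mcm6, Rrm1, Chaf1b and Dtl, against 6.79% of all genes, and below 0 in the 3 lines other than 6419c5 for 23 genes, against 12.5% of all genes.

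The 6 subunits of the MCM helicase, Mcm2 to Mcm7, form the ring that unwinds DNA at the fork. They summed to 600.1 TPM in WT and 337.1 TPM in KO of 6694c2, to 910.4 and 264.5 TPM in 2838c3, to 415.2 and 322.7 TPM in 6499c4, and to 281.1 and 270.6 TPM in 6419c5. By the relative log2 difference, 5 of the 6 were at least 2-fold lower in KO in 2838c3 and 1, Mcm6, in 6694c2. In TPM without centring, Mcm4 was also more than 2-fold lower in 6694c2, with WT at 2.05 times KO. In 7 libraries the most abundant subunit stood at 1.83 to 2.81 times the least abundant; in 2838c3 KO the ratio was 8.23.

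Mcm5 (chromosome 8, 75836140 to 75856231, plus strand, mm39) accounted for the low end of that ratio. Its level was 88.3 TPM in WT and 49.2 TPM in KO of 6694c2, 146 and 12.2 TPM in 2838c3, 49.7 and 40.1 TPM in 6499c4, and 24.2 and 26.6 TPM in 6419c5. For Mcm5 the KO library of 2838c3 was the lowest of the 8 and the WT library of that line the highest. The groups overlapped, since the WT library of 6419c5 lay below the KO libraries of the 3 lines other than 2838c3. The means were 77.1 ± 53.1 TPM in WT and 32.0 ± 16.1 TPM in KO (SD, n = 4 lines each), and the relative log2 difference was -0.97 with an SE of 0.55 and an adjusted limma p of 0.573. In 2838c3 alone the relative difference was -3.40, the lowest of the 31 genes in any line.

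Mcm6 (chromosome 1, 128259311 to 128287516, minus strand) accounted for the high end. It was measured at 140.3 TPM in WT and 57.7 TPM in KO of 6694c2, at 140.5 and 100.7 TPM in 2838c3, at 92.7 and 68.2 TPM in 6499c4, and at 68.0 and 56.6 TPM in 6419c5. Here 2838c3 KO was the highest of the KO libraries, and the largest difference, -1.04, was that of 6694c2. In 6499c4 its relative difference was -0.33 and in 6419c5 -0.10. Mcm6 thus stood at 0.96 times Mcm5 in 2838c3 WT and at 8.23 times Mcm5 in 2838c3 KO. In the KO libraries of the other lines it stood at 1.17, 1.70 and 2.13 times Mcm5.

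Mcm3 stood at 103 and 61.1 TPM in WT and KO of 6694c2, at 189 and 30.0 TPM in 2838c3, at 71.2 and 55.3 TPM in 6499c4, and at 43.5 and 37.4 TPM in 6419c5, lower in KO in each line. Its relative differences were -0.51, -2.53, -0.26 and -0.06 in that order of lines. Mcm7 was at 125 and 69.9 TPM, at 197 and 52.8 TPM, at 102 and 82.0 TPM, and at 59.4 and 62.4 TPM in the same order. Both genes were lowest in 2838c3 KO and highest in 2838c3 WT, and Mcm7 was marginally higher in KO in 6419c5. Mcm4 had KO levels of 34.3 to 54.4 TPM and WT levels of 52.0 to 129 TPM, with a KO level of 48.7% of WT in 6694c2, 26.5% in 2838c3, 76.0% in 6499c4 and 93.4% in 6419c5. Mcm2 had the KO level nearest to WT of the 6 subunits in 6694c2, at 88.9% of WT, and stood at 32.0% in 2838c3, 79.1% in 6499c4 and 119% in 6419c5.

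**Figure D3:**
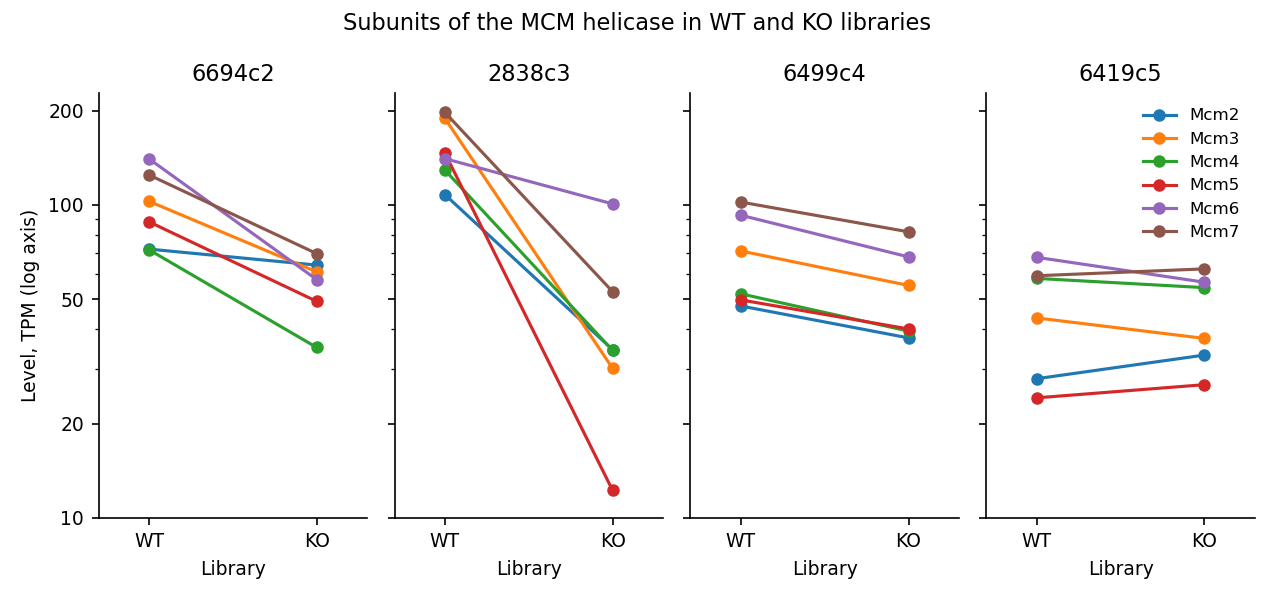
TPM of the subunits Mcm2 to Mcm7 of the MCM helicase in WT and KO libraries, in a panel for each line on a shared log axis, with a line joining the WT and KO library of a subunit. In the panel of 2838c3 the subunits lie between 108 and 197 TPM in WT, and in KO 5 lie at 52.8 TPM or lower while Mcm6 stays at 100.7 TPM.

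Among the genes that load and activate the helicase, Cdc6 had the lowest estimate of all 31 in the fit over lines. Cdc6, the ATPase that recruits Cdt1 and MCM to origins (chromosome 11, 98798507 to 98814766, plus strand), stood at 13.8 and 7.72 TPM in WT and KO of 6694c2, at 16.5 and 1.38 TPM in 2838c3, at 12.6 and 6.61 TPM in 6499c4, and at 4.06 and 4.01 TPM in 6419c5. It was lower in KO in 3 lines and nearly level in 6419c5, whose WT library already lay below 2 of the KO libraries. The means were 11.7 ± 5.37 TPM in WT and 4.93 ± 2.83 TPM in KO (SD, n = 4), with a relative log2 difference of -0.98, an SE of 0.43 and an adjusted limma p of 0.561.

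Cdt1, the licensing factor that Cdc6 brings to the origin, followed another pattern, standing at 71.3 and 64.1 TPM, 93.4 and 43.5 TPM, 52.2 and 48.5 TPM, and 42.8 and 33.3 TPM in WT and KO of 6694c2, 2838c3, 6499c4 and 6419c5. Its KO level was 90.0% of WT in 6694c2 and 46.6% in 2838c3, where Cdc6 was at 55.7% and 8.36%. Geminin, the inhibitor of Cdt1 encoded by Gmnn, was at 91.8 and 48.0 TPM, 120.2 and 36.9 TPM, 71.3 and 60.4 TPM, and 38.7 and 42.3 TPM in the same order. The ratio of Cdt1 to Gmnn TPM was higher in KO in 3 of the 4 lines. It was 0.776 in WT against 1.34 in KO for 6694c2, 0.777 against 1.18 for 2838c3, 0.732 against 0.804 for 6499c4, and 1.11 against 0.788 for 6419c5.

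Cdc45 and the GINS complex complete the active helicase, and Cdc45, Gins1 and Gins3 were among the 6 genes whose estimate lay above the median of all genes without 2838c3. Cdc45 was measured at 26.0 and 24.4 TPM in WT and KO of 6694c2, at 54.7 and 7.65 TPM in 2838c3, at 19.7 and 16.6 TPM in 6499c4, and at 13.7 and 19.6 TPM in 6419c5. Gins1 was at 41.3 and 29.4 TPM, 60.9 and 13.6 TPM, 15.7 and 14.8 TPM, and 9.11 and 15.6 TPM in the same order. For both genes 2838c3 was the line with a large gap and 6419c5 the line with the higher KO level, 143% of WT for Cdc45 and 172% for Gins1. Gins2 stood in WT and KO at 23.1 and 11.6 TPM, 34.7 and 9.48 TPM, 17.9 and 15.1 TPM, and 13.3 and 12.9 TPM. In TPM it was lower in KO in each line, but its relative difference in 6419c5 was 0.11, above the median of all genes. Gins3, the least abundant at 3.71 to 10.9 TPM, was at 84.4%, 55.9%, 86.3% and 102% of WT. Mcm10, a helicase activation factor, was at 7.86 and 5.66 TPM, 17.1 and 1.27 TPM, 5.21 and 3.65 TPM, and 1.98 and 2.84 TPM, and its KO level in 2838c3 was 7.43% of WT, the smallest share of the 31 genes.

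By the relative log2 difference, all 6 polymerase, clamp and ligation genes were at least 2-fold lower in KO in 2838c3 and none was in the other lines. In TPM without centring, Lig1 and Pole were also more than 2-fold lower in 6694c2, with WT at 2.18 and 2.02 times KO. Pcna, the sliding clamp and the most abundant of the 31 genes in every library, was at 285 and 184 TPM in WT and KO of 6694c2, at 429 and 139 TPM in 2838c3, at 213 and 190.2 TPM in 6499c4, and at 113 and 117 TPM in 6419c5. Its lowest level of the 8 was that of 6419c5 WT and not that of 2838c3 KO. Lig1, the ligase that seals Okazaki fragments, was at 83.7 and 38.4 TPM, 87.9 and 20.9 TPM, 52.2 and 42.8 TPM, and 37.1 and 37.4 TPM. Fen1, the flap endonuclease of the same step, was at 16.4 and 9.72 TPM, 25.8 and 5.72 TPM, 14.7 and 11.6 TPM, and 9.95 and 9.46 TPM. The 3 genes had in common a WT level that was highest in 2838c3 and KO levels that were nearly the same as WT in 6419c5.

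Pola1 and Prim1 encode subunits of polymerase alpha-primase, which starts each new strand. Prim1 stood at 16.1 and 8.28 TPM, 23.1 and 4.27 TPM, 17.3 and 9.54 TPM, and 12.7 and 13.7 TPM in WT and KO of the 4 lines in the same order. Pola1 stood at 8.36 and 4.27 TPM, 10.8 and 3.47 TPM, 8.19 and 4.70 TPM, and 3.04 and 3.19 TPM. For both genes KO was between 51.0% and 57.3% of WT in 6694c2 and 6499c4, where the medians of the 31 genes were 55.7% and 76.9%. Pole, the catalytic subunit of the leading-strand polymerase, was at 49.4%, 17.4%, 71.8% and 109% of WT.

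In nucleotide supply, the ribonucleotide reductase subunits Rrm1 and Rrm2 had different patterns. Rrm1 (chromosome 7, 102090890 to 102119709, plus strand) was at 35.8 and 18.5 TPM in WT and KO of 6694c2, at 50.7 and 20.5 TPM in 2838c3, at 23.8 and 18.8 TPM in 6499c4, and at 24.2 and 18.6 TPM in 6419c5. Every WT library lay above every KO library, which held for 2 of the 31 genes, Rrm1 and Chaf1b, and for 1.34% of all genes. The reverse, every WT library below every KO library, held for 0 of the 31 and for 0.147% of all genes. The means were 33.6 ± 12.7 TPM in WT and 19.1 ± 0.942 TPM in KO (SD, n = 4), and the KO levels lay within 1.11 times of each other. The relative log2 difference of Rrm1 was -0.57 with an SE of 0.20, an unadjusted p of 0.00924 and an adjusted limma p of 0.556.

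Rrm2, the subunit that sets the enzyme's activity through the cell cycle, was at 219 and 92.9 TPM, 166 and 25.5 TPM, 115 and 78.8 TPM, and 40.2 and 71.4 TPM in the same order. It was lower in KO in 3 lines and higher in 6419c5, where its relative difference of 0.97 was the highest of the 31 genes. The ratio of Rrm2 to Rrm1 TPM was 6.13 in WT against 5.03 in KO for 6694c2, 3.28 against 1.24 for 2838c3, 4.84 against 4.19 for 6499c4, and 1.66 against 3.83 for 6419c5. Tyms, the thymidylate synthase gene, was at 8.09 and 4.88 TPM, 23.3 and 2.66 TPM, 9.06 and 6.89 TPM, and 7.09 and 8.44 TPM, with its WT level in 2838c3 well above the other 3 WT libraries. A processed copy, Tyms-ps, and the Pcna copies Pcna-ps1 and Pcna-ps2 are annotated, so reads of these genes could have been split.

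Chaf1b had the smallest unadjusted p of the 31 genes in limma's test of KO against WT. Chaf1b encodes a subunit of chromatin assembly factor 1, which places histones on new DNA (chromosome 16, 93680768 to 93703003, plus strand). It stood at 11.4 and 6.26 TPM in WT and KO of 6694c2, at 26.2 and 5.78 TPM in 2838c3, at 14.8 and 8.97 TPM in 6499c4, and at 13.5 and 9.07 TPM in 6419c5. The genotypes did not overlap, and the gene was the one with the lowest relative difference in 6419c5, at -0.37. The means were 16.5 ± 6.61 TPM in WT and 7.52 ± 1.74 TPM in KO (SD, n = 4), and the relative log2 difference was -0.84 with an SE of 0.27, an unadjusted p of 0.00802 and an adjusted limma p of 0.556.

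Chaf1a, its partner subunit, overlapped between genotypes, at 47.3 and 29.6 TPM, 87.8 and 21.8 TPM, 61.2 and 58.8 TPM, and 25.9 and 29.1 TPM. In 6499c4 and 6419c5 its KO level was 96.0% and 112% of WT, where Chaf1b was at 60.7% and 67.1%. Uhrf1, which brings the maintenance DNA methyltransferase to replicated DNA, was at 76.5 and 34.3 TPM, 105 and 15.9 TPM, 52.7 and 38.6 TPM, and 17.3 and 23.8 TPM. Its WT levels spanned 6.09-fold, and 6419c5 was the line with a higher KO level. Slbp, which binds the stem-loop of histone messages, was at 56.5%, 36.2%, 71.0% and 101% of WT in 6694c2, 2838c3, 6499c4 and 6419c5.

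Among the regulators of G1/S, Ccne1 and Ccne2, the E-type cyclins that activate Cdk2, had different patterns. Ccne2 was at 8.08 and 3.32 TPM in WT and KO of 6694c2, at 16.4 and 3.27 TPM in 2838c3, at 5.55 and 2.15 TPM in 6499c4, and at 1.98 and 2.08 TPM in 6419c5. Its KO levels lay between 2.08 and 3.32 TPM while its WT levels spanned 8.30-fold, and in 6499c4 its relative difference of -0.95 was the lowest of the 31 genes. Ccne1 was at 2.54 and 2.03 TPM, 11.9 and 3.68 TPM, 4.05 and 3.11 TPM, and 4.49 and 5.07 TPM, with relative differences of 0.00, -1.38, -0.19 and 0.30. The ratio of Ccne2 to Ccne1 TPM was accordingly lower in KO in each line, at 3.18 and 1.64, 1.38 and 0.890, 1.37 and 0.691, and 0.440 and 0.411.

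E2f1, an activating E2F factor and itself an E2F target, was at 18.8 and 8.42 TPM, 27.4 and 15.4 TPM, 19.7 and 20.1 TPM, and 13.9 and 11.1 TPM. E2f1 and Mcm6 were the 2 genes whose lowest difference was in 6694c2 and not in 2838c3. Dtl, the substrate receptor of the ligase that degrades Cdt1 in S phase, was at 6.45 and 2.84 TPM, 8.19 and 1.63 TPM, 5.19 and 3.07 TPM, and 2.75 and 2.18 TPM, lower in KO in each line. Its relative log2 difference was -0.75 with an SE of 0.27, an unadjusted p of 0.0139 and an adjusted limma p of 0.556. Tipin, the fork protection partner of Timeless, was at 36.8 and 25.8 TPM, 70.3 and 20.7 TPM, 32.1 and 21.0 TPM, and 18.4 and 21.4 TPM, so that its KO levels lay within 1.25 times of each other.

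Exons of another protein-coding gene on the opposite strand overlap exons of 9 of the 31 genes: Ccne1, Ccne2, Cdc45, Chaf1a, Fen1, Gins2, Lig1, Mcm7 and Tipin. The sources used here do not say whether counting used strand, so reads of those genes and their neighbours may not have been told apart.

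Differences between lines were tested over both genotypes with an F-test on the line terms of the same model. None of the 31 genes passed an adjusted p of 0.05 in this limma test, with values from 0.116 for Gins3 to 0.955 for Tyms, against 16.9% of all genes. Without the libraries of 2838c3, 9 of the 31 genes passed (29.0%, against 28.7% of all genes): Mcm2, Mcm3, Mcm5, Mcm10, Cdc6, Cdt1, Gins1, Pcna and Chaf1a. Their adjusted limma p-values were then between 0.0224 and 0.0476. Each of the 9 stood in WT in the order 6694c2, 6499c4, 6419c5 from high to low except Chaf1a, which was highest in 6499c4. In KO, Chaf1a and Pcna were highest of these lines in 6499c4, and Gins1 was lowest there. The share of all genes with this WT order was not counted. A share of 29.0% is close to that of all genes.

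E2F sites were searched in the 250 bases before the start of each gene, with promoters from the RefSeq table of build GRCm38.p6, in which 25 of the 31 genes matched by symbol (not Ccne2, Gins1, Gins2, Mcm4, Pole or Tipin). The E2F motif was taken as TTTCCCGC, TTTCGCGC, TTTGCCGC or TTTGGCGC on either strand, and overlapping matches were counted separately. At least 1 match was found for 8 of the 25 genes (32.0%), against 2.16% of the 27025 gene symbols of the table and 4.03% of the 9298 tested genes with a promoter there. The CCAAT box, to which NF-Y binds, searched on both strands and counted whether or not it overlapped an E2F match, was found for 17 of the 25 (68.0%), against 37.5% of all symbols and 40.9% of the tested genes. More than 1 E2F match was found for Mcm5 and Mcm6, against 0.0592% of all symbols. The windows around the matches are shown 5′ to 3′ on the gene's strand because E2F factors are the regulators that these genes are best known to respond to. Capitals mark the matches, and each window holds at most 30 bases. Windows were placed on mm39 (GRCm39) by the only exact match, on the gene's chromosome, of the 250 bases that hold them.

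Mcm5 (chr8:75835975-75836004, upstream of the gene, 2 overlapping matches): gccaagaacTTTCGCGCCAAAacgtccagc
Mcm6 (chr1:128287532-128287561, upstream, 2 overlapping matches): gcgtatgctTTTGGCGCGAAAagtgcgtgc
Mcm6 (chr1:128287471-128287500, exon): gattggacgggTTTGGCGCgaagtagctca
Mcm7 (chr5:138170292-138170321, exon, also an exon of Ap4m1): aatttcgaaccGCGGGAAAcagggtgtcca
Cdc6 (chr11:98798828-98798857, intron): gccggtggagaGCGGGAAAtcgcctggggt
Gins3 (chr8:96360135-96360164, exon): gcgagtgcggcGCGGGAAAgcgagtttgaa
Pola1 (chrX:92675881-92675910, upstream): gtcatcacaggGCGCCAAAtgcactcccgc
Uhrf1 (chr17:56611117-56611146, exon): cccgagtcgggTTTCGCGCgcccaggcgtc
Dtl (chr1:191307657-191307675, exon): cgtgacgtcagTTTGGCGC

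The windows of Mcm5 and Mcm6 hold the motif in both orientations over 1 stretch, and these genes had the lowest and the highest relative difference in 2838c3, -3.40 and -0.40. Exon and intron refer to GENCODE transcripts of the same gene that start upstream of the RefSeq start. A match is a description of letters and not of binding, and a gene without a match may hold another form of the site, or a site outside this window.

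**Figure D4:**
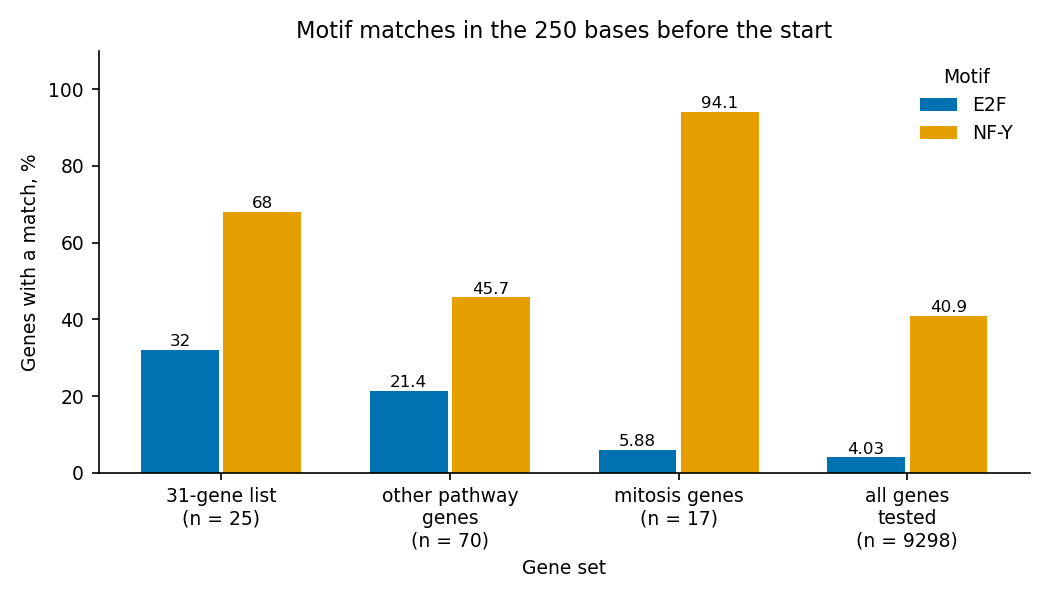
Percent of genes with a match to the E2F motif and to the CCAAT box in the 250 bases before the start, for the 31 genes, other replication pathway genes, mitosis genes and all genes tested, with the number of genes that have a promoter in the table below each group. Of the genes with a promoter in the table, 25 of the 31 and 17 of the mitosis genes, the E2F motif is found for 32.0% and 5.88%, and the CCAAT box for 68.0% and 94.1%.

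Other genes of the same pathway, 85 tested of 87 listed, lay on the same side in smaller measure. Of the 85, 68 had an estimate below the median of all genes and 17 above it, with a median of -0.21 against -0.60 for the 31 genes. None passed an adjusted p of 0.05 in limma's test of KO against WT, and at an unadjusted p under 0.05 20 were lower and 1, Cdkn1a, was higher, against 7.95% of all genes on the lower side and 8.81% in either direction. As given above, most of all genes at that level were on the lower side, a split that was nearly even with median-ratio scaling. Their medians by line were -0.19 in 6694c2, -0.77 in 2838c3, -0.14 in 6499c4 and 0.16 in 6419c5, and 34 of the 85 were at least 2-fold lower in KO in 2838c3 (6.47% of all genes). The E2F motif was found for 15 of 70 of these genes with a promoter (21.4%).

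Origin and licensing control genes (17 tested) had a median of -0.18, with 4 lower at an unadjusted p under 0.05. Orc6, a subunit of the origin recognition complex, had the smallest p among them at a relative difference of -0.54, and Orc1 stood at -0.40. Mtbp, which takes part in origin firing, stood at 0.23, Cdc7, the kinase that activates MCM, at -0.24, and Gins4, the remaining GINS subunit, at -0.18. Gins4 was more abundant than the 3 GINS genes of the set, at 79.6 to 184 TPM, and its KO level in 2838c3 was 127 TPM against 184 TPM in WT.

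Polymerase, clamp loader and RPA subunits (19 tested) had a median of -0.23, with 5 lower at an unadjusted p under 0.05. Rfc1, the large clamp loader subunit, stood at -0.34, and Pold4, a small subunit of polymerase delta, at 0.54. Fork protection and checkpoint genes (6 tested) had a median of -0.65, close to that of the 31, and Timeless, the partner of Tipin, stood at -0.65 with -0.65 (6694c2), -1.77 (2838c3), -0.15 (6499c4) and -0.05 (6419c5) by line. Other nucleotide supply genes (8 tested) had a median of -0.30; Dck, a salvage kinase, stood at -0.40 and Tk1, thymidine kinase, at -0.51. Other chromatin assembly and maintenance genes (8 tested) had a median of -0.46, with Hells, a remodeller, at -0.83.

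E2F, RB and cyclin-CDK genes (20 tested) had a median of -0.14. Rbl1, a pocket protein gene and E2F target, stood at -0.66, and E2f5 at 0.31. Ccnd1, cyclin D1, stood at -0.21, its kinases Cdk4 and Cdk6 at -0.14 and -0.07, Rb1 at 0.23 and Myc at 0.24. The list holds E2F targets beside the regulators upstream of E2F, and its median was not tested against that of the 31 genes.

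CDK inhibitors (7 tested) had a median of 0.16. Cdkn1a, which encodes the p53 target p21, stood at 88.1 and 80.8 TPM in WT and KO of 6694c2, at 44.0 and 212 TPM in 2838c3, at 10.5 and 32.1 TPM in 6499c4, and at 15.2 and 42.2 TPM in 6419c5. It was higher in KO in the 3 lines other than 6694c2, with relative differences of 0.11, 2.32, 1.63 and 1.57, and over lines its relative difference was 1.41 with an SE of 0.35 and an adjusted limma p of 0.556. The Cdkn1a difference was positive both in 2838c3, where the 31 genes had a median of -1.88, and in 6419c5, where their median was 0.21. Cdkn1b, the p27 gene, had its highest level in 2838c3 KO, at 161 TPM against 70.5 TPM in WT, and levels of 54.8 to 122 TPM elsewhere. Cdkn2c, the p18 gene, stood at -0.54. Cdkn2a, the p16 and p19Arf locus, was at 5.76 and 5.21 TPM in 6694c2 and at 520 to 1507 TPM in the 6 libraries of the other lines, and its difference between lines passed with an adjusted limma p of 6.6e-05. In WT, 6694c2 stood between 2838c3 and 6499c4 for the 21 of the 31 genes in the order given above. Whether the levels of Cdkn1a or Cdkn2a are linked to those of the 31 genes was not tested.

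Genes of mitosis, which are expressed later in the cell cycle, had medians that spanned a wider range between the lines. All 20 tested were at least 2-fold lower in KO in 2838c3 (6.47% of all genes), with a median relative difference of -2.94. In 6419c5 11 of the 20 were at least 2-fold higher in KO (2.09% of all genes), with a median of 1.03. In 6694c2 and 6499c4 their medians were -0.30 and -0.11. Mki67, the proliferation marker, was at 58.1 and 37.3 TPM in WT and KO of 6694c2, at 80.4 and 7.11 TPM in 2838c3, at 26.9 and 17.1 TPM in 6499c4, and at 14.5 and 25.1 TPM in 6419c5. Top2a, topoisomerase II alpha, was at 94.9 and 54.5 TPM, 145 and 22.6 TPM, 60.1 and 40.0 TPM, and 22.4 and 33.5 TPM. Both were highest in 2838c3 WT and higher in KO than in WT in 6419c5. In 6694c2 and 6499c4 the mitosis genes lay nearer to the median of all genes than the 31 replication genes did, whose medians there were -0.54 and -0.25.

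**Figure D5:**
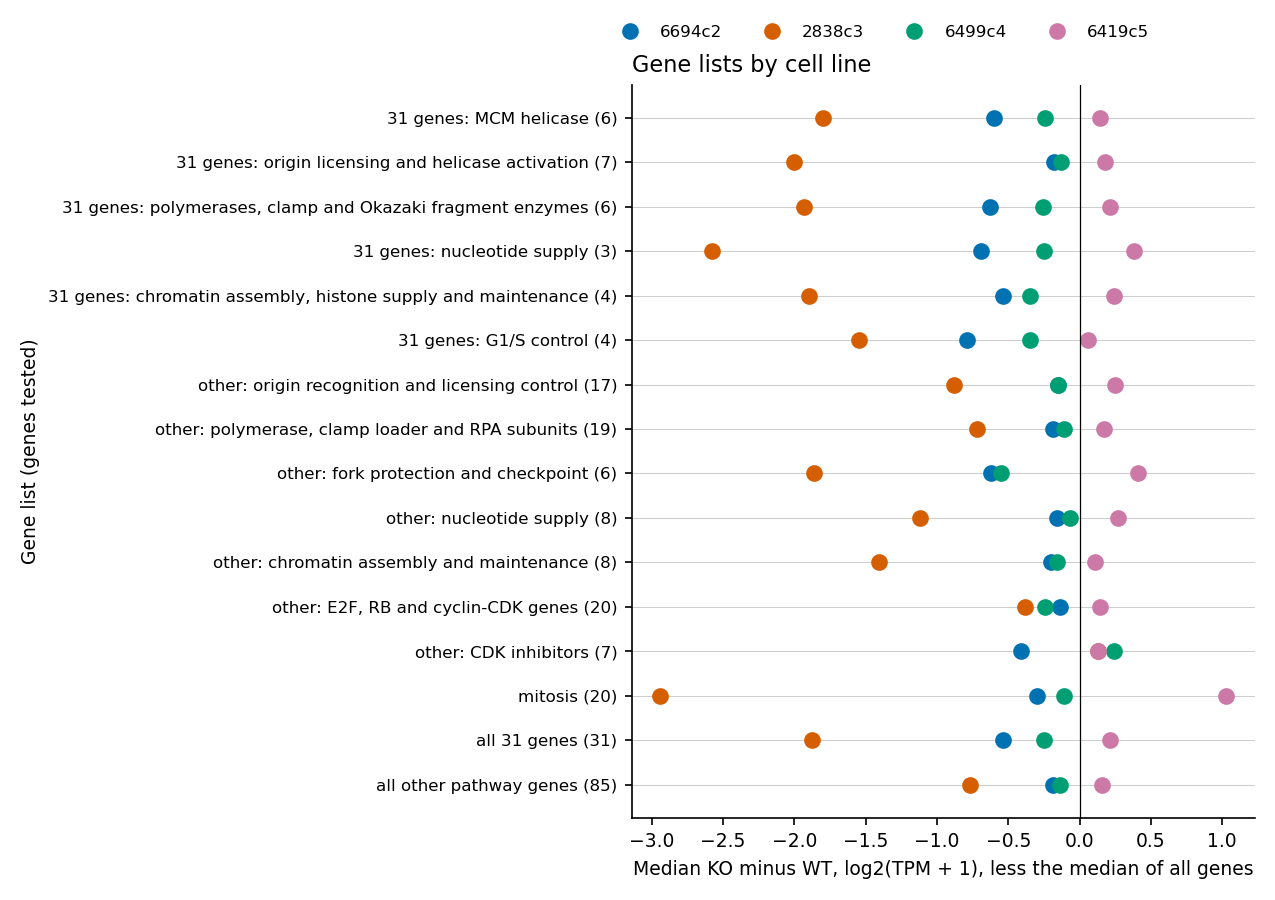
Median relative log2 difference KO minus WT of each gene list in each line, with the number of genes tested in brackets and 1 point a line; points may cover each other. All 31 genes lie at -1.88 in 2838c3 and 0.21 in 6419c5, and the mitosis list at -2.94 and 1.03.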

How the data were processed

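Poly(A) RNA of 8 libraries was analysed, 4 WT and 4 KO, 1 of each genotype from each of 4 lines, from the TPM values that the authors deposited. The submitters' processing notes list genome build mm39, DESeq2 2.11.40.8, featureCounts 2.1.1, cutadapt 5.1 and STAR 2.7.11b. The annotation and how the TPM were computed are not given in the sources used here. The series' design text calls the libraries stranded, whereas the kit named in the labels' protocols does not mention strand. TPM keep no depth, so the depth of each library is unknown here. Identifiers were named with GENCODE vM39 (45505 of 49315).

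Genes at 1 TPM or more in at least 4 libraries (12900) were fitted as log2(TPM + 1) with limma 3.58.1 (R 4.3.3), with line and genotype as terms and a mean-variance trend. P-values were adjusted by Benjamini-Hochberg over all genes tested. With the line as a term, p-values of KO against WT rest on how far the KO minus WT difference disagrees between the 4 lines. P-values of the line test set the differences between lines against the same disagreement. In both tests limma moderates this error over all genes. Same-line libraries are paired by origin. Deviations of the WT and KO library of a line from their genotype means correlated at 0.42 in 2838c3, the lowest of the lines. They correlated at 0.66 in 6694c2, 0.79 in 6499c4 and 0.75 in 6419c5, and those of different lines at no more than 0.24. Deviations from a genotype mean cancel over the lines, which lowers the values between different lines. The fit was tested on simulated data. The genes and all lists were chosen with earlier results of these data known. Of the other pathway genes, those named are the gene of smallest p in each list and direction and a fixed set of genes, of which 1 is not reported here; all matching promoter windows are printed. Alternatives changed the pseudocount, filter, scaling, variance model, block and lines used.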

Additional observations from a re-analysis of the deposited data

Results flagged for a closer look

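In 6 of 64 groups of 4 libraries of a genotype, 1 library lay apart from the other 3 relative to the range of the group. Chance marks about 1 in 20 groups. Among WT libraries the marked genes were Tyms and Slbp, at 23.3 and 32.7 TPM in 2838c3. Among KO libraries they were Mcm2, Gins1 and Tipin, at 64.2, 29.4 and 25.8 TPM in 6694c2, and Rrm1, at 20.5 TPM in 2838c3, each the highest of its group. Such a gap can be small in TPM. The KO levels of Rrm1 lay within 1.11 times of each other and those of Tipin within 1.25 times.

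The median difference of the 31 genes between KO and WT had opposite signs in 2838c3, at -1.88, and in 6419c5, at 0.21. This difference between lines was not tested, because each line has 1 library of each genotype.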

How the results depend on the processing

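No gene of the 31 passed the adjusted p of 0.05 in limma's test of KO against WT under any alternative run. The median difference of the 31 genes was negative under every alternative, from -0.48 to -1.04 with 2838c3 and -0.20 without it. Of 476 estimates of single genes under alternatives, those of the 31 genes and of Cdkn1a, 470 kept their direction. The 6 others all arose without 2838c3, at 0.09 for Mcm2, 0.02 for Mcm10, 0.23 for Cdc45, 0.23 for Gins1, 0.05 for Gins3 and 0.05 for Ccne1. Changes of the variance model or the block cannot alter an estimate in this design, so their agreement was fixed in advance. A rescaling of whole libraries largely cancels, since the estimates are taken less the median of all genes. The count of genes that differed between lines ranged from 0 to 9 when a line was left out. It was 9 without 2838c3, where 28.7% of all genes passed.

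The count of 16 genes at an unadjusted p under 0.05 was 8 with no filter on low values and 5 with median-ratio scaling. It was 6 with quantile normalization and 9 without unnamed identifiers and small RNA. Of all genes, 1026 of 12900 were lower at that level, and 1410 of 27103 with no filter. The other 3 settings gave 347 of 12900, 333 of 12900 and 587 of 12613, in that order. The count of the 31 ranged from 5 to 23 when a line was left out (5 without 6694c2, 8 without 2838c3, 8 without 6499c4, 23 without 6419c5). Of the 12900 genes, 575, 1473, 678 and 702 were then lower, in that order. The count over all genes thus moved as well. These counts were chosen after seeing the data. The cause was not tested. With no replicate block, that is without the pairing by line, the count was 11, against 176 of all 12900 genes on the lower side. None of the 31 then passed the adjusted threshold, and no other call changed. The count of 2 genes at least 2-fold lower in 6694c2 was 1 with a pseudocount of 0.1, with median-ratio scaling or without unnamed identifiers and small RNA, 6 with no filter and 7 without centring on the median of all genes. In 6499c4 the count of 0 was 1 with a pseudocount of 0.1, with no filter or without centring. The shares of all genes at that fold, 3.17% in 6694c2 and 1.26% in 6499c4, are those of the main setting only. With a TPM minimum of 5, 27 of the 31 genes were left to test. The line comparison has no version without the block. The depth of each library is unknown from TPM, so no counting error is given for genes near 1 TPM such as Mcm10 and Cdc6 in 2838c3 KO.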
